A study of Homo sapiens with 22 samples.

Results

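The 9 genes described here are LUM, COL3A1, TAGLN, TGFBI, TGFB1, TGFB2, THBS1, SPARC and HSPG2, which encode matrix proteins, ligands of the TGF-beta pathway and an actin-binding protein. They were chosen by symbol after LUM and TAGLN had been seen to rise with STAU1 knockdown, so their values in the knockdown are a description and carry no test. All 9 symbols are present among the 57820 genes of the actinomycin D tables. Of the 9, 8 are present by symbol among the 58870 genes of the siRNA tables. The identifier of TGFB1 (ENSG00000105329) is listed there under the symbol AC011462.1, which in GENCODE 29 is a separate gene on the opposite strand, so the siRNA values of TGFB1 are given by identifier.

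The series holds 22 RNA-seq libraries in 8 groups from LS180 and HCT116, established human colorectal cancer cell lines, and concerns the RNA-binding protein Staufen1 and the FOXA1 mRNA. LS180 cells given siCTRL or siSTAU1 in 2 rounds of 72 h each form the siRNA groups, with n = 2 polyA libraries per group and no actinomycin D. LS180 and HCT116 cells given actinomycin D, which blocks transcription, at 5 µg/ml for 0, 2 or 4 h form the other 6 groups, with n = 3 total RNA libraries per group and no siRNA named. Both siRNA groups are LS180, so the knockdown was seen in 1 line only. Nothing in the labels ties libraries of a group to separate cultures. The p-values therefore measure only how far these libraries differ, which may be technical. In such bulk samples fewer cells expressing a gene and less RNA per cell cannot be told apart.

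TGF-beta is secreted as a latent complex, and proteins such as thrombospondin 1 and integrins release the active ligand. The ligand binds a pair of receptor kinases, which phosphorylate SMAD proteins that enter the nucleus and raise matrix genes, actin-binding genes and feedback inhibitors. In colorectal tissue most fibrillar collagen and small proteoglycan is made by fibroblasts, while epithelial cells secrete basement membrane components and TGF-beta ligands. Staufen1 binds double-stranded stretches of mRNA, often in the 3′ UTR, and can start decay of the mRNA it binds.

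Promoter sequence is shown for TGFBI and THBS1, which were higher in the siSTAU1 libraries, and for TGFB2, which was lower. The table of RefSeq promoters (GRCh38.p14, 250 bases before to 50 after the start) held 6 of the 9 members. Capitals mark, on either strand, GGGCGG (the GC box), CAGACA (a SMAD motif) or TATAAA (the TATA box). The 3 windows are chr5:136028738-136029037, chr15:39580829-39581128 and chr1:218345086-218345385, all on the plus strand.
TGFBI: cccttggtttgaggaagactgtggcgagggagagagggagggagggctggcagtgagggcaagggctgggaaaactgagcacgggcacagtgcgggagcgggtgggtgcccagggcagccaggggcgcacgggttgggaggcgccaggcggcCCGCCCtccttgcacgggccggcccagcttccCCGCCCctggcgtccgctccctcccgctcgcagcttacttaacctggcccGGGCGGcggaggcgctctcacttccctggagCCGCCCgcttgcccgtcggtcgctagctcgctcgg
THBS1: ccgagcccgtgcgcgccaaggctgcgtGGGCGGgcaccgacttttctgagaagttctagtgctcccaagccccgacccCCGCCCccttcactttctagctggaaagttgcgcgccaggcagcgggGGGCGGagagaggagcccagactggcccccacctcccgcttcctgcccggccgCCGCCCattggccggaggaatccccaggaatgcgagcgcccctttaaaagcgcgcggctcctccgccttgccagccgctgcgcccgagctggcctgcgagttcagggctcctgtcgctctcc
TGFB2: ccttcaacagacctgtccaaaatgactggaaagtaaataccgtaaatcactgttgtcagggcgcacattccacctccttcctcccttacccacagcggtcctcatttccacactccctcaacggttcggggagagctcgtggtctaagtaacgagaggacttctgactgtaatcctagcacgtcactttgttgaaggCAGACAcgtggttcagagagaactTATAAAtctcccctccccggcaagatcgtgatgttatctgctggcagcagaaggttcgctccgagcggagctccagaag
TGFBI and THBS1 each held 4 GC boxes, and TGFB2 held 0. Of the members not shown, HSPG2, also lower with siSTAU1, held 10, TGFB1 held 7 and SPARC 0. TGFB2 held 1 CAGACA 53 bases and 1 TATAAA 29 bases before its RefSeq start, and TGFBI and THBS1 held neither. The GENCODE 29 locus of TGFB2 begins at 218346235, downstream of the whole window, so the TGFB2 positions hold for the RefSeq start only. HSPG2 held 1 CAGACA and 0 TATAAA. Among all 35116 promoters of that table, 45.0% held GGGCGG, 16.9% CAGACA and 11.5% TATAAA. GC content was 72.7% in TGFBI, 70.0% in THBS1 and 51.7% in TGFB2, against a median of 58.7% over the table. In HSPG2 it was 83.3%, in TGFB1 77.3% and in SPARC 61.3%. TGFB1 overlapped between the siRNA groups and SPARC was not fitted, so neither has a direction in the knockdown. A link between GC content and that direction was not tested. TGTTTAC and TGTTTGC, forms of the forkhead motif, were found in 3.42% and 3.89% of the table's promoters and in 0 and 1 of the 6 members (TGFB1). TGANTCA (AP-1) and the CArG box, the motif of serum response factor, were in 7.71% and 1.29% of the table and in 0 of the 6 members. The windows show letters only and no binding.

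The 3′ UTR is shown where it holds TTATTTATT, the AU-rich nonamer known from short-lived mRNAs, because actinomycin D compares how long mRNAs last. In the principal GENCODE 29 transcripts, COL3A1 and THBS1 held 1 nonamer each and TGFB2 held 2 (capitals, the mRNA strand, with T for U).
COL3A1: aattccagTTATTTATTtccaaaat
TGFB2, first site: acagtgagTTATTTATTgtgtgtta
TGFB2, second site: ttattcccTTATTTATTgctatttg
THBS1: aatacagaTTATTTATTaactctgt
The other 6 members held 0 nonamers. The shorter ATTTA occurred 8 times in THBS1 (4097 bases of 3′ UTR), 7 times in TGFB2 (3257 bases) and 0 times in TGFBI (591 bases), TAGLN (419 bases) and HSPG2 (1071 bases). It occurred 6 times in SPARC (2475 bases), 4 times each in LUM (1536 bases) and COL3A1 (972 bases) and 2 times in TGFB1 (729 bases). The median over tested genes with a 3′ UTR in the annotation was 2. Of 13647 genes tested under actinomycin D with a 3′ UTR in the annotation, 8.27% held the nonamer. Their median log2 change at 4 h in LS180 was -0.22, against 0.01 for genes without it.

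Library totals were 23.7 to 26.7 M counts in the siRNA and 47.8 to 61.4 M counts in the actinomycin D experiment. STAU1, the targeted gene, stood at 144 and 141 CPM (counts-per-million, TMM-scaled) with siCTRL and at 9.70 and 9.17 CPM with siSTAU1, a log2 fold change of -3.92 (SE 0.057; edgeR adjusted p = 2.15e-12). All 11 colorectal epithelial markers averaged at least 1 CPM in both siRNA groups and summed to 12130 to 12720 CPM per library. The 11 fibroblast markers summed to 1.145 to 1.295 CPM in siCTRL and 0.681 to 1.29 CPM in siSTAU1 libraries. PDGFRA, COL1A2, THY1, PDPN and POSTN were at 0 in all 4 of these libraries. In HCT116, CEACAM5 was at 0 in every library at each time and 7 of the 11 epithelial markers averaged at least 1 CPM. The HCT116 libraries numbered 1 stood apart in several members at each time, and LS180 library 1 at 4 h likewise, so results that rest on them are also given without them. All counting intervals cover counting error only.

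With STAU1 knocked down, the matrix genes LUM and COL3A1, the actin-binding gene TAGLN, and THBS1 and TGFBI stood higher in LS180, and TGFB2 and HSPG2 stood lower. Both siSTAU1 libraries lay on one side of both siCTRL libraries for 7 of the 8 members that passed the filter on low counts, as they did for 73.5% of all 14073 genes tested. Over the same genes, 46.1% were called at an adjusted p below 0.05, 23.0% higher and 23.0% lower. Since the knockdown chose the members, nothing is read from either comparison. The median log2 fold change was 0.82 over the 8 members and 0.00 over all genes tested.

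LUM (ENSG00000139329; GRCh38 chromosome 12, 91102629 to 91111831, minus strand) encodes lumican, a small leucine-rich proteoglycan that binds collagen fibrils. With siCTRL the libraries held 1.74 and 1.25 CPM of LUM, from 47 and 30 counts, and with siSTAU1 they held 9.18 and 10.8 CPM, from 229 and 269 counts. The fold was 6.62 (log2 2.73, SE 0.17), and it stayed between 2.52 and 2.99 on the log2 scale over 10 alternative fits. COL3A1 (ENSG00000168542; chromosome 2, 188974320 to 189012746, plus strand) encodes the chain of fibrillar type III collagen. It stood at 2.47 and 2.55 CPM with siCTRL and at 5.61 and 4.99 CPM with siSTAU1, a fold of 2.11 (log2 1.08, SE 0.16). SPARC (ENSG00000113140; chromosome 5, 151661096 to 151687165, minus strand), the matricellular osteonectin gene, had 2 and 2 counts with siCTRL and 3 and 1 with siSTAU1. SPARC was therefore at or under the level that depth can resolve and was not fitted.

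HSPG2 (ENSG00000142798; chromosome 1, 21822245 to 21937297, minus strand) encodes perlecan, a large heparan sulfate proteoglycan of basement membranes. It stood at 92.7 and 91.5 CPM with siCTRL and at 77.8 and 82.9 CPM with siSTAU1 (log2 -0.20, SE 0.044). With the effective length as an offset the HSPG2 difference was -0.0014. In TPM, which divides by that length, the libraries were 14.1 and 13.5 with siCTRL and 12.7 and 13.2 with siSTAU1. HSPG2 was thus lower per read but nearly level per effective length.

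Among the TGF-beta genes the ligand TGFB2 stood lower, the ligand TGFB1 overlapped between the groups and the target TGFBI stood higher. TGFB2 (ENSG00000092969; chromosome 1, 218346235 to 218444619, plus strand), a ligand gene, stood at 8.73 and 8.42 CPM with siCTRL and at 5.70 and 5.95 CPM with siSTAU1 (log2 -0.56, SE 0.11). With the effective length as an offset the TGFB2 value was -0.25. The TGFB1 identifier (chromosome 19, 41301587 to 41353911, minus strand), another ligand gene, stood at 4.62 and 4.26 CPM with siCTRL and at 4.17 and 5.19 CPM with siSTAU1 (log2 0.07, SE 0.16). The TGFB1 libraries of the groups overlapped. TGFBI (ENSG00000120708; chromosome 5, 136028895 to 136063818, plus strand) encodes a secreted adhesion protein that TGF-beta is known to induce. It stood at 54.1 and 58.3 CPM with siCTRL and at 93.0 and 92.8 CPM with siSTAU1, a fold of 1.65 (log2 0.73, SE 0.049). The ratio of TGFBI to TGFB2 counts within a library was 6.20 and 6.93 with siCTRL and 16.3 and 15.6 with siSTAU1.

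THBS1 (ENSG00000137801; chromosome 15, 39581079 to 39599466, plus strand) encodes thrombospondin 1, which can release TGF-beta from its latent complex. It stood at 6.20 and 6.68 CPM with siCTRL and at 11.9 and 12.4 CPM with siSTAU1 (log2 0.92, SE 0.10), and at 0.70 on the log2 scale with the effective length as an offset. TAGLN (ENSG00000149591; chromosome 11, 117199321 to 117204782, plus strand) encodes transgelin, which binds actin filaments in smooth muscle. It stood at 11.999 and 11.2 CPM with siCTRL and at 22.0 and 22.8 CPM with siSTAU1 (log2 0.95, SE 0.078). Several members overlap other genes in GENCODE 29: TAGLN shares 446 bases with PCSK7, TGFB1 14695 with CCDC97, THBS1 11110 with FSIP1, HSPG2 2977 with LDLRAD2 and SPARC 10221 with CLMAT3, all on the opposite strand. TGFB2 shares 1371 bases with TGFB2-OT1 on its own strand. Whether the authors' counting used strand is not given in the sources used here, so reads of such pairs may be split between them.

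**Figure D1:**
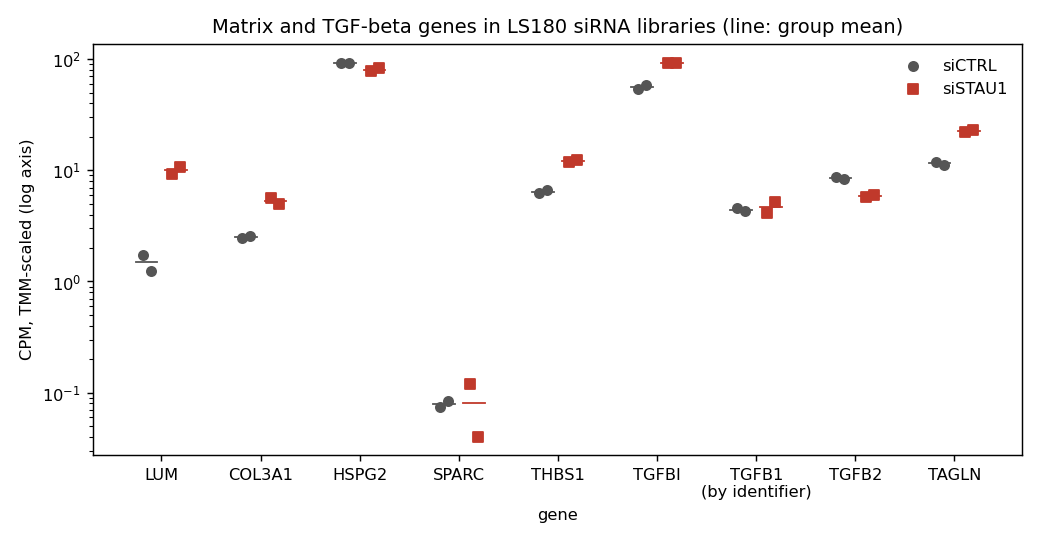
TMM-scaled CPM on a log axis for each member in the 2 siCTRL (grey circles) and 2 siSTAU1 (red squares) LS180 libraries; points are libraries and short lines are group means. LUM lay at 1.25 and 1.74 CPM with siCTRL and at 9.18 and 10.8 CPM with siSTAU1, the TGFB1 libraries overlap, and SPARC rests on 1 to 3 counts per library.

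Per length, the members covered a wide range of levels in LS180. In siCTRL libraries TGFBI was highest at 38.8 ± 2.19 TPM (SD, n = 2), then TAGLN at 17.9 ± 0.530, HSPG2 at 13.8 ± 0.375, TGFB2 at 3.27 ± 0.262 and TGFB1 at 2.40 ± 0.290. THBS1 at 1.44 ± 0.431 TPM and LUM at 1.11 ± 0.403 TPM had overlapping libraries, and COL3A1 stood at 0.615 ± 0.0212 and SPARC at 0.075 ± 0.00707. In siSTAU1 libraries LUM, at 7.23 ± 0.276 TPM, came after TGFBI (58.1 ± 1.82), TAGLN (32.8 ± 0.523) and HSPG2 (12.9 ± 0.361). TGFB2, TGFB1 and THBS1 followed at 2.58 ± 0.431, 2.24 ± 0.297 and 2.17 ± 0.120 TPM with overlapping libraries.

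Other genes of the pathway and matrix were counted in 11 lists made from general knowledge, members left out. Over all genes tested in the knockdown 23.0% were called higher and 23.0% lower, the background for every list count. Of the 18 tested genes known as TGF-beta targets, 9 rose and 2 fell in the knockdown, and the list's median log2 fold change was 0.22. CCN2, a matricellular growth factor, rose from 15.4 ± 0.204 to 29.5 ± 0.187 CPM (log2 0.94; edgeR adjusted p = 1.10e-06). TPM1 (tropomyosin), HMGA2 (a chromatin protein) and CDKN1A (the cell cycle inhibitor p21) rose by 0.52, 0.71 and 0.29 on the log2 scale (edgeR adjusted p = 7.41e-07, 1.18e-05 and 3.20e-05). With the effective length as an offset 6 of these 18 rose and 1 fell. Of 23 tested actin and SRF target genes, a list that also holds TPM1, 11 rose and 2 fell, with a median of 0.08. MYL9, a myosin light chain gene, rose from 11.1 ± 0.0817 to 24.9 ± 1.14 CPM (log2 1.17; edgeR adjusted p = 5.66e-07), and ACTN4, an actinin gene, fell by 0.25 (edgeR adjusted p = 0.000214).

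The receptor and SMAD list moved both ways in the knockdown, with 5 of 24 tested genes higher and 4 lower, against 23.0% each way over all genes. PMEPA1, a feedback inhibitor that TGF-beta induces, rose from 15.4 ± 1.37 to 23.0 ± 2.02 CPM (log2 0.58; edgeR adjusted p = 0.000245), a call lost with the effective length as an offset (adjusted p = 0.0787). TGFBR3, the co-receptor betaglycan, fell from 45.0 ± 1.63 to 35.5 ± 0.315 CPM (log2 -0.34; edgeR adjusted p = 0.000758). ENG, the co-receptor endoglin, rose from 1.01 ± 0.245 to 2.09 ± 0.118 CPM (log2 1.04; edgeR adjusted p = 0.0109), a call lost in 3 alternatives, among them without siCTRL library 2 (adjusted p = 0.0887). Of 11 tested genes for ligands, latency and activation, 2 rose and 1 fell. ITGB8, the integrin chain that frees TGF-beta from its latent complex, rose from 11.98 ± 0.0199 to 18.5 ± 0.496 CPM (log2 0.63; edgeR adjusted p = 5.88e-05).

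Structural matrix lists did not move as one, and their counts stand against 23.0% higher and 23.0% lower over all genes tested. Of 9 tested collagen genes 2 rose and 1 fell, and the list's median was -0.05: COL4A2, of the basement membrane, rose from 4.94 ± 0.484 to 8.61 ± 0.00827 CPM (log2 0.80; edgeR adjusted p = 0.000264) and COL13A1, a transmembrane collagen, fell from 2.06 ± 0.374 to 0.763 ± 0.225 CPM (log2 -1.43; edgeR adjusted p = 0.00322). Of 22 genes for collagen synthesis and crosslinking 9 rose and 5 fell. SERPINH1, the collagen chaperone, rose by 0.36 and P3H3, of the prolyl 3-hydroxylase family, fell by 1.34 on the log2 scale (edgeR adjusted p = 8.62e-06 and 2.08e-07). Among small leucine-rich proteoglycans other than LUM only 3 passed the filter, and of these FMOD rose by 0.35 and TSKU by 0.17 (edgeR adjusted p = 0.000809 and 0.0246). Of 20 basement membrane and heparan sulfate proteoglycan genes 4 rose and 6 fell, DAG1, the dystroglycan gene, by 0.68 (edgeR adjusted p = 8.06e-08). The matricellular list left out CCN2, counted with the TGF-beta targets, and the member THBS1, both of which stood higher. Of the rest of that family, edgeR called 0 of 6 tested, and DESeq2 called 0 of the 4 to which it gave an adjusted p. At an unadjusted edgeR p below 0.05 there was 1, TNC (tenascin C), at -0.91 on the log2 scale (unadjusted p = 0.0257, adjusted p = 0.0548).

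**Figure D2:**
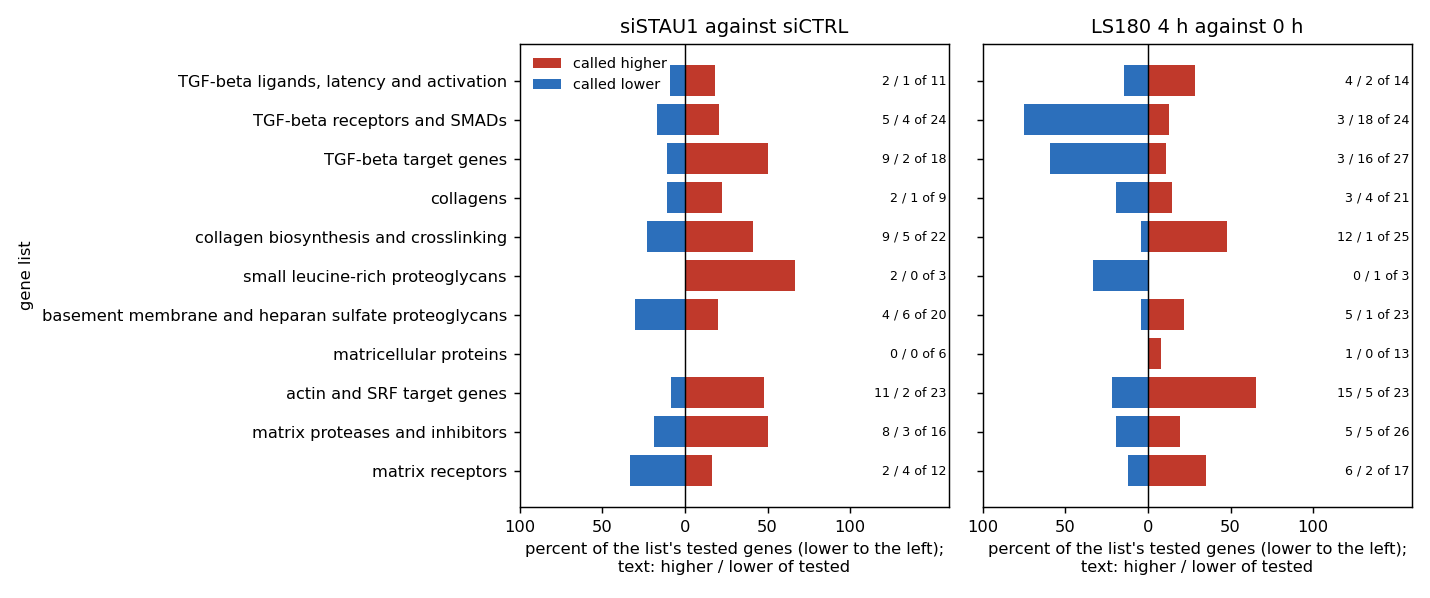
Share of each list's tested genes called higher (red, to the right) or lower (blue, to the left) at an adjusted p below 0.05, for siSTAU1 against siCTRL and for LS180 at 4 h against 0 h; printed numbers are higher and lower of those tested. TGF-beta target genes were 9 higher and 2 lower of 18 in the knockdown and 3 higher and 16 lower of 27 at 4 h.

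Of the 11 fibroblast markers 1 passed the filter on low counts in the siRNA libraries, and it was not called. Among smooth muscle markers 2 passed. ACTG2, enteric actin, rose from 0.933 ± 0.276 to 3.01 ± 0.291 CPM (log2 1.70; edgeR adjusted p = 0.000388), ACTA2 stood at 3.73 ± 0.210 and 3.64 ± 0.742 CPM, and MYOCD and LMOD1 were at 0. Summed smooth muscle markers were 4.77 to 4.84 CPM with siCTRL and 6.09 to 7.43 CPM with siSTAU1. Epithelial markers were called in 10 of 11, 7 higher and 3 lower, where 46.1% of all genes tested were called, 23.0% higher and 23.0% lower. CDH1, E-cadherin, fell from 454 ± 5.83 to 244 ± 3.63 CPM (log2 -0.90; edgeR adjusted p = 9.51e-09). CEACAM5, KRT19 and CDX2 rose by 0.44, 0.41 and 0.21 on the log2 scale (edgeR adjusted p = 3.67e-06, 1.55e-05 and 0.00091). The part of these markers in the members' values was not tested.

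Under actinomycin D, LS180 cells kept TGFBI and LUM relative to other transcripts, while TGFB2 and THBS1 declined. Once transcription is blocked, CPM gives a gene's share of what is left, and a rise does not mean new RNA. At 4 h, 2 of the 9 members were called higher and 2 lower, where 26.6% and 31.1% of all 17256 genes were (57.7% in either direction). At 2 h 1 of 9 was called, THBS1, lower, against 37.4% of all genes. With RLE size factors or DESeq2 the sole member called at 2 h was instead TGFBI, higher. The members' share is near or below the background. Scaling matters here: with scaling to 48 ribosomal protein genes, the median of all genes moved from 0.00 to -0.52 at 4 h in LS180 and from 0.02 to -0.33 in HCT116, and 0 members were then called higher in either line.

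TGFB2 stood at 25.1, 22.6 and 24.8 CPM in the LS180 libraries at 0 h, at 20.7, 20.1 and 22.0 CPM at 2 h and at 19.8, 17.5 and 16.5 CPM at 4 h. The 4 h libraries all lay below the 0 h libraries. TGFB2 fell by 0.43 on the log2 scale at 4 h (SE 0.082; edgeR adjusted p = 0.000181) and differed by -0.21 at 2 h (adjusted p = 0.0503). The 4 h call was lost with the effective length as an offset (-0.31, adjusted p = 0.177) and kept without library 1 at 4 h (-0.38, adjusted p = 0.00045). With library 1 as the sole 4 h library, whose spread is then taken from the other groups, the value was -0.16 (adjusted p = 0.238).

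THBS1 stood at 6.52, 5.88 and 6.32 CPM in LS180 at 0 h, at 5.17, 5.19 and 5.16 CPM at 2 h and at 5.58, 4.82 and 5.01 CPM at 4 h. Neither later group overlapped with 0 h. It fell by 0.27 at 2 h (SE 0.083; edgeR adjusted p = 0.0149) and by 0.28 at 4 h (SE 0.084; adjusted p = 0.0077). With DESeq2 the THBS1 values were -0.15 and -0.15 and neither was called (adjusted p = 0.186 and 0.175). In total 6 of 15 alternatives at 2 h and 6 of 16 at 4 h lost the call, among them 4 h without LS180 4 h library 2 (adjusted p = 0.0524), 2 h without LS180 2 h library 2 (0.214) and 2 h without LS180 0 h library 1 (0.0615).

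TGFBI stood at 32.7, 32.9 and 33.4 CPM in LS180 at 0 h, at 35.1, 38.3 and 37.7 CPM at 2 h and at 41.4, 45.0 and 44.4 CPM at 4 h. Each later group lay wholly above 0 h. It rose by 0.40 on the log2 scale at 4 h (SE 0.085; edgeR adjusted p = 0.000503) and differed by 0.16 at 2 h (adjusted p = 0.141). At 2 h TGFBI was called higher in 6 of 15 alternatives, among them RLE size factors (0.28, adjusted p = 0.00988), DESeq2 (0.28, adjusted p = 6.92e-05) and without LS180 2 h library 2 (0.26, adjusted p = 0.0418). With ribosomal protein gene scaling the TGFBI value at 4 h was -0.13 (adjusted p = 0.376), and with total library size it was 0.20 (adjusted p = 0.153).

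Ratios of 2 members' counts within a library do not depend on scaling. TGFBI counts over TGFB2 counts were 1.30, 1.46 and 1.35 in LS180 at 0 h, 1.70, 1.91 and 1.71 at 2 h and 2.09, 2.57 and 2.69 at 4 h. TGFBI over THBS1 was 5.02, 5.60 and 5.29 at 0 h, 6.80, 7.38 and 7.29 at 2 h and 7.41, 9.33 and 8.87 at 4 h. None of these later libraries overlapped with 0 h, and the mean log2 ratio at 4 h was higher by 0.83 for TGFB2 and 0.68 for THBS1 as the denominator. The exact permutation p, two-sided, was 0.1 for each, the smallest that 3 against 3 libraries allow. TGFBI over HSPG2, by contrast, overlapped between 0 h and 4 h (0.459, 0.462 and 0.567 against 0.389, 0.651 and 0.705; exact permutation p = 0.6). These ratios were added after the data were seen.

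**Figure D3:**
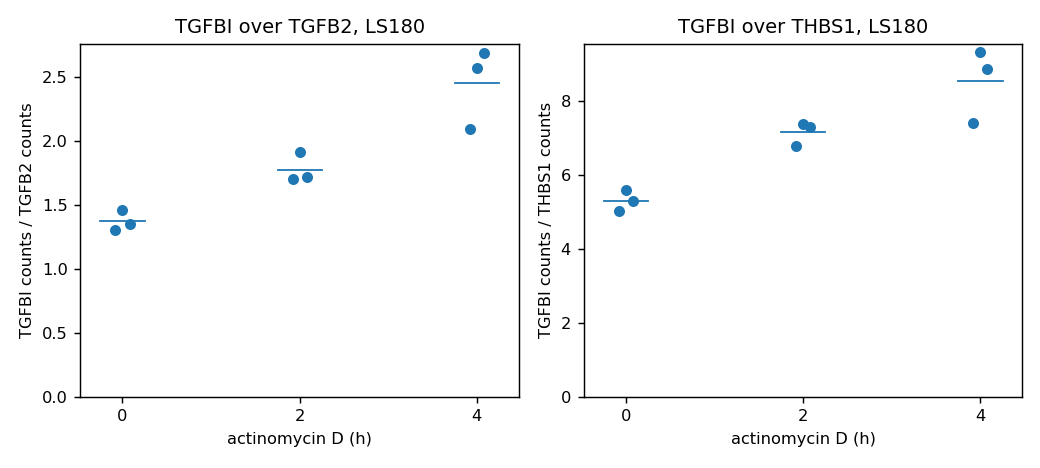
Counts of TGFBI divided by counts of TGFB2 (left) or THBS1 (right) within each LS180 library at 0, 2 and 4 h of actinomycin D, on linear axes from 0; points are the 3 libraries and lines their mean. The TGFB2 ratio went from 1.30 to 1.46 at 0 h to 2.09 to 2.69 at 4 h with no overlap.

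LUM was near the lower limit of these total RNA libraries, with 6, 5 and 11 counts at 0 h, 11, 11 and 21 at 2 h and 18, 18 and 17 at 4 h in LS180. In CPM the 4 h libraries (0.343, 0.363 and 0.370) lay above those at 0 h (0.107, 0.0971 and 0.197). LUM rose by 1.40 on the log2 scale at 4 h (SE 0.40; edgeR adjusted p = 0.00716), and the value was 0.71 with the effective length as an offset (adjusted p = 0.362), 0.87 with ribosomal protein gene scaling (adjusted p = 0.0829) and 1.56 without library 1 at 4 h (adjusted p = 0.00899). With library 1 as the sole 4 h library, again with the spread of the other groups, it was 1.47 (adjusted p = 0.0635). COL3A1 had 32, 50 and 27 counts in all over the LS180 libraries at 0, 2 and 4 h and was not called at either time (adjusted p = 0.218 and 0.843). SPARC had 4, 7 and 8 counts over the same groups, and its level there cannot be resolved at this depth.

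TGFB1 stood at 1.92 ± 0.306 CPM (SD, n = 3) in LS180 at 0 h, 2.16 ± 0.137 at 2 h and 1.94 ± 0.195 at 4 h, with overlapping libraries. It was not called (4 h: log2 0.01, SE 0.14; edgeR adjusted p = 0.952), and with ribosomal protein gene scaling TGFB1 fell by 0.52 (adjusted p = 0.0031). TAGLN stood at 0.965, 0.874 and 1.38 CPM at 0 h and at 0.972, 1.69 and 2.13 CPM at 4 h (log2 0.56, SE 0.36; adjusted p = 0.200). Without LS180 4 h library 1 TAGLN rose by 0.96 (adjusted p = 0.0341). HSPG2 stood at 71.4, 71.2 and 58.9 CPM at 0 h and at 106, 69.1 and 63.0 CPM at 4 h (log2 0.24, SE 0.26; adjusted p = 0.453), and the value was 0.11 without LS180 4 h library 1 (adjusted p = 0.752). Over the alternatives HSPG2 ran from -0.24 with ribosomal protein gene scaling to 0.80 with library 1 as the sole 4 h library, and it was called in 1, with no filter on low counts (0.36, adjusted p = 1.69e-05). Library 1 at 4 h was thus the highest of its group in HSPG2 and the lowest in TAGLN.

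In HCT116 the only member called at either time was THBS1, at 4 h. It stood at 21.5, 21.5 and 22.8 CPM at 0 h, at 20.04, 18.6 and 19.6 CPM at 2 h and at 20.1, 16.4 and 17.8 CPM at 4 h, and neither later group overlapped with 0 h. It fell by 0.28 on the log2 scale at 4 h (SE 0.072; edgeR adjusted p = 0.00374), and it stayed called in all 16 alternatives (largest adjusted p = 0.0246). At 2 h it differed by -0.18 (adjusted p = 0.0721). That is 1 of 9 members against 49.9% of all genes at 4 h, and 0 of 9 against 31.0% at 2 h. In DESeq2 0 members were called at 2 h as well, and no member had an unadjusted edgeR p below 0.05 at 2 h other than THBS1 (0.0249). TGFB1 stood at 8.12 ± 0.814 CPM at 0 h and 9.30 ± 0.650 at 4 h (log2 0.19, SE 0.11; adjusted p = 0.146), and rose by 0.28 without HCT116 0 h library 1 (adjusted p = 0.0497). The TGFB1 to THBS1 count ratio was 0.420, 0.353 and 0.339 at 0 h and 0.475, 0.598 and 0.481 at 4 h, without overlap (exact permutation p = 0.1). The same ratio overlapped with 0 h in HCT116 at 2 h and in LS180 at 4 h (exact permutation p = 0.2 for each) and did not in LS180 at 2 h (exact permutation p = 0.1).

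The lines were also compared in their response. Of all 17256 genes 5.64% were called for a difference between the lines in the 2 h change (5.24% higher and 0.394% lower, as HCT116 minus LS180) and 13.7% in the 4 h change (12.3% higher and 1.33% lower). Of the members 0 were called in edgeR or DESeq2 for either. At an unadjusted p below 0.05 TGFB2 at 4 h was the sole member (difference 0.77, HCT116 minus LS180, SE 0.30; unadjusted p = 0.0319, adjusted p = 0.158), and it rests on 29 and 36 counts in HCT116. THBS1 changed by -0.28 in both lines at 4 h, and the difference was 0.00 (SE 0.11).

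**Figure D4:**
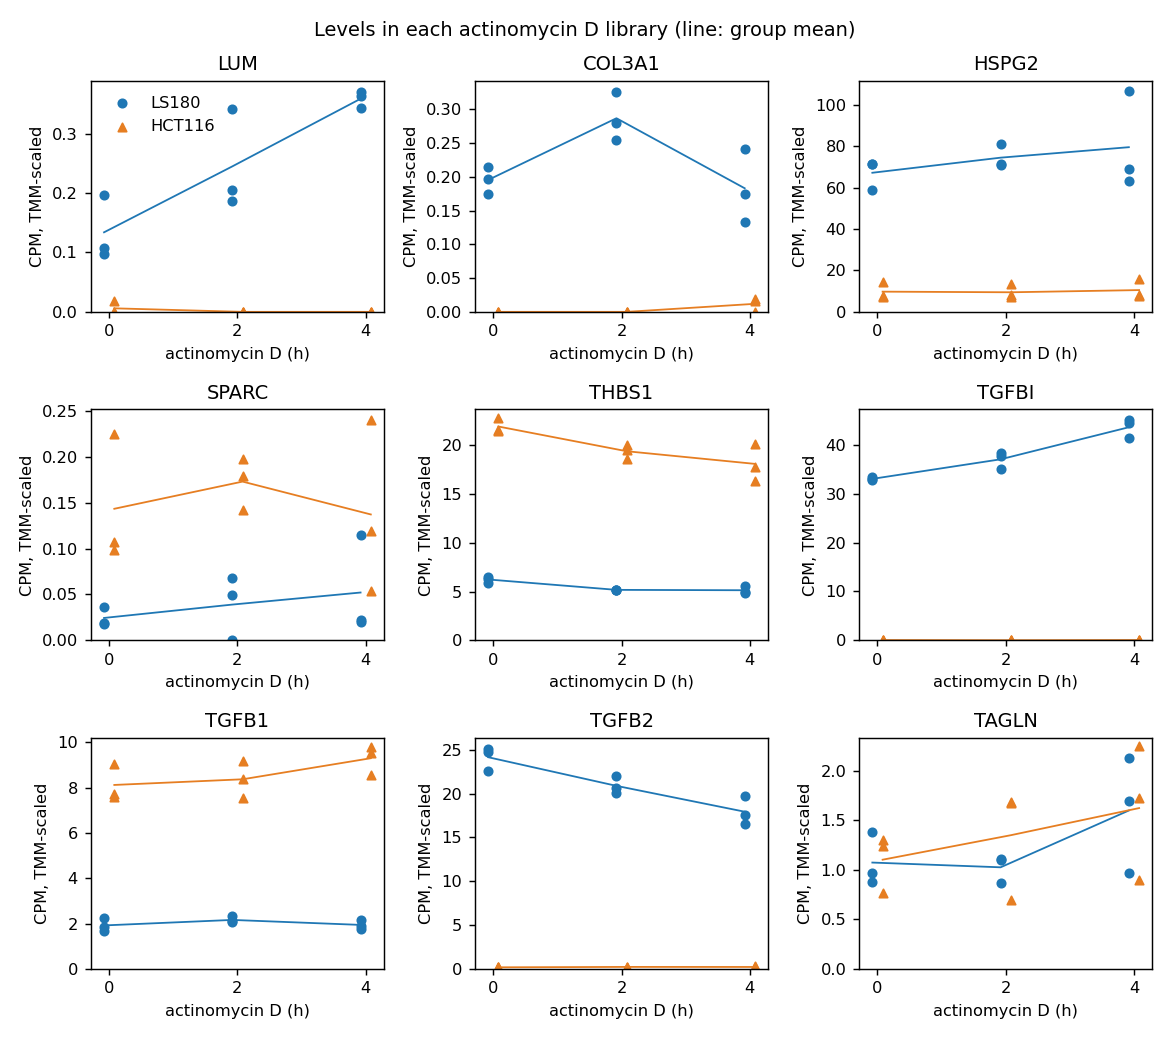
TMM-scaled CPM of each member (linear axes from 0) against hours of actinomycin D in LS180 (blue circles) and HCT116 (orange triangles); points are libraries, n = 3 per line and time, and lines join group means. TGFBI rises and TGFB2 declines in LS180, THBS1 declines in both lines, and LUM, COL3A1, TGFBI and TGFB2 lie near 0 in HCT116.

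Before actinomycin D the lines differed in 8 of the 9 members, 3 higher and 5 lower in HCT116. Over all genes 76.3% were called, 33.7% higher and 42.6% lower, so the members' share is near the background. TGFBI stood at 32.7, 32.9 and 33.4 CPM in LS180 and at 0.0748, 0 and 0.0789 CPM in HCT116, from 5, 0 and 4 counts (log2 -9.25, SE 0.18; edgeR adjusted p = 1.44e-18). TGFB2 stood at 25.1, 22.6 and 24.8 CPM in LS180 and at 0.150, 0.178 and 0.177 CPM in HCT116 (log2 -7.16, SE 0.14; adjusted p = 1.67e-18). COL3A1 had 32 counts over the LS180 and 0 over the HCT116 libraries, which makes it at least 11.4-fold lower in HCT116 when the HCT116 group is set at its floor of 3 counts in all. LUM had 22 counts against 1, a ratio of 23.4 (exact binomial 95% interval 3.78 to 966). HSPG2 stood at 67.2 ± 7.15 CPM in LS180 and 9.76 ± 3.87 CPM in HCT116 (log2 -2.77, SE 0.29; adjusted p = 7.84e-08), and at -3.15 without the HCT116 libraries numbered 1.

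TGFB1, THBS1 and SPARC went the other way. TGFB1 stood at 2.25, 1.84 and 1.65 CPM in LS180 and 9.06, 7.58 and 7.73 CPM in HCT116 (log2 2.08, SE 0.12; edgeR adjusted p = 1.32e-11). THBS1 stood at 6.52, 5.88 and 6.32 CPM in LS180 and 21.5, 21.5 and 22.8 CPM in HCT116 (log2 1.81, SE 0.078; adjusted p = 1.27e-13). SPARC had 4 counts over the LS180 and 26 over the HCT116 libraries, of which 15 in library 1 (ratio 6.11, exact binomial 95% interval 2.12 to 24.1; edgeR adjusted p = 0.00802), and it lost the call without HCT116 0 h library 1 (adjusted p = 0.0574). TAGLN stood at 0.965, 0.874 and 1.38 CPM in LS180 and at 0.763, 1.30 and 1.24 CPM in HCT116, with overlap (log2 0.02, SE 0.37; adjusted p = 0.961). Thus HCT116 libraries had more TGFB1 and less TGFB2 than LS180, and the per-length order changed with it. THBS1 (1.44 ± 0.0950 TPM) and TGFB1 (1.42 ± 0.323 TPM) led in HCT116 with overlapping libraries, and TGFBI (7.53 ± 0.560 TPM), HSPG2 (3.31 ± 0.134 TPM) and TGFB2 (2.36 ± 0.348 TPM) led in LS180.

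**Figure D5:**
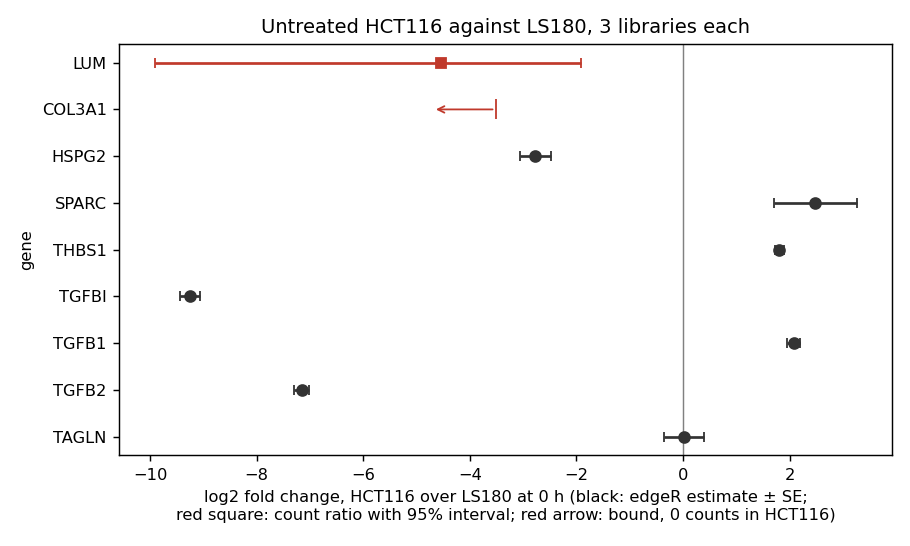
Log2 fold change of each member in untreated HCT116 over LS180 (0 h, 3 libraries each). Black points are edgeR estimates with their SE, the red square is the LUM count ratio with its 95% interval, and the red arrow starts at the bound for COL3A1, which has 0 counts in HCT116. TGFB1, THBS1 and SPARC lie above 0, TAGLN at 0.02, and the other 5 below 0.

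The lists around the members differed widely between the lines as well. Over all genes tested 76.3% were called, 33.7% higher and 42.6% lower in HCT116, the background for these counts. Of the 41 collagen genes listed 21 passed the filter on low counts, which a gene expressed in 1 line only can pass. Of 21 tested collagen genes other than COL3A1, 17 were higher in HCT116 and 4 lower (median log2 2.30), and 15 were higher without the HCT116 libraries numbered 1. COL6A2 stood at 0.0373 ± 0.0202 CPM in LS180 and 38.6 ± 2.30 CPM in HCT116 (log2 9.95; edgeR adjusted p = 2.97e-18). The 3 small leucine-rich proteoglycans tested beside LUM were all lower in HCT116. PMEPA1, the feedback inhibitor, stood at 21.7 ± 2.48 CPM in LS180 and 0.372 ± 0.102 CPM in HCT116 (log2 -5.89; adjusted p = 2.46e-15), and ITGB6, an integrin chain that activates latent TGF-beta, at 8.46 ± 0.292 and 0.0919 ± 0.0142 CPM (log2 -6.49; adjusted p = 2.81e-15). TGF-beta target genes were 17 higher and 8 lower of 27 in HCT116, with ITGA5, an integrin chain, higher by 4.26 and TPM1 lower at -3.21 on the log2 scale.

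Most receptor and SMAD genes and most TGF-beta target genes were called lower in both lines at 4 h of actinomycin D. In LS180, where 31.1% of all genes tested were called lower, 18 of 24 receptor and SMAD genes were lower and 3 higher (median -0.80, against 0.00 over all genes), and 16 of 27 TGF-beta target genes lower and 3 higher (median -0.64). SMAD7, the inhibitory SMAD, fell from 22.9 ± 1.14 to 0.840 ± 0.115 CPM (log2 -4.76; edgeR adjusted p = 4.39e-13), BAMBI, a decoy receptor, from 12.8 ± 1.13 to 0.637 ± 0.125 CPM (log2 -4.32; adjusted p = 6.69e-15), and TGIF1, a SMAD corepressor, by 3.28 (adjusted p = 2.90e-15). KLF10, an early target of TGF-beta, fell by 4.38 (adjusted p = 1.04e-13). In HCT116, where 23.7% of all genes were called lower, 17 of 24 receptor and SMAD genes were lower and 2 higher, and 16 of 27 target genes lower and 3 higher. Genes for collagen synthesis were called higher in 12 of 25 and lower in 1 of 25 in LS180, and actin and SRF targets higher in 15 and lower in 5 of 23. Of all genes tested there, 26.6% were called higher and 31.1% lower. The higher counts depend on the scaling: with ribosomal protein genes as the scale 0 of 25 and 0 of 23 were higher and 8 and 10 lower, while the receptor list was 0 higher and 22 lower. On that scale 151 of all 17256 genes were called higher and 10449 lower in LS180 at 4 h.

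HSPG2 and TAGLN also differed by library number. In HCT116, HSPG2 had 950, 758 and 984 counts in the libraries numbered 1 at 0, 2 and 4 h and 389 to 442 counts in the other 6. On the log2 CPM scale library 1 lay 0.91, 0.85 and 0.99 above the mean of libraries 2 and 3 in HSPG2, and 0.72, 1.24 and 1.12 below it in TAGLN. The median absolute deviation of that kind over all 17256 genes was 0.147 to 0.174 in HCT116. In LS180 the deviations at 4 h were 0.69 for HSPG2 and -0.94 for TAGLN, at 2 h -0.10 and -0.34, and at 0 h 0.14 and -0.19. The median absolute deviation over all genes in LS180 was 0.207 at 4 h, 0.089 at 2 h and 0.082 at 0 h. What sets these libraries apart was not tested.

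By Pearson correlation of log2 CPM over the 18 actinomycin D libraries, the genes closest to TGFBI were GK (r = 0.998) and MYO7B (0.998), to TGFB2 CDH10 (0.998) and VAV3 (0.998), to HSPG2 HID1 (0.995) and ASIC1 (0.994), to THBS1 LRRC8C (0.996) and GNAI1 (0.996), and to TGFB1 RAB31 (0.994) and EGFL7 (0.994). These 5 members differ between the lines, so the r values are a description dominated by 2 clusters of libraries. TAGLN, which did not differ between the lines, was closest to SNRPG (r = 0.863) and TOP2A (0.853).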

How the data were processed

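RNA was sequenced from 22 libraries in 8 groups. The authors trimmed reads with cutadapt, aligned them with STAR 2.7 and quantified genes with RSEM 1.3.1, per the submitters' processing notes, on hg38 (siRNA libraries) and hg19 (actinomycin D libraries). How overlapping genes were counted depends on the strand setting and annotation release, both not given in the sources used here. The deposited expected counts divide reads that match several genes among them, and they were rounded to whole numbers. The deposited TPM values, per effective length, were used to order genes, and the authors' deposited FPKM values were not used. RSEM's effective length per gene served as an offset in 1 alternative.

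Genes passing filterByExpr were fitted with edgeR 4.0.16 (R 4.3.3; TMM scaling, quasi-likelihood F test), the 4 siRNA and the 18 actinomycin D libraries apart. P-values were adjusted by Benjamini-Hochberg over all 14073 or 17256 genes, with a threshold of 0.05, and SE is the absolute log2 fold change over the square root of F. The siRNA fit had 2 residual degrees of freedom. On simulated counts 76.1% of 1.5-fold and 98.5% of 4-fold changes were recovered for siSTAU1 against siCTRL (13919 genes), and 62.7% and 98.5% for LS180 at 4 h (16534 genes). Every simulated gene had the same dispersion, and only 67 were changed by 1.5-fold, 67 by 2-fold and 66 by 4-fold. These rates therefore need not hold for the data. Intervals are exact binomial at 95%, and a floor is 3 counts.

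The members and all gene lists were chosen with earlier results of these data known. Named genes are all members and, per list, up to 4 called genes with the smallest adjusted p. Alternatives were RLE size factors, DESeq2 1.42.0, other filters, length offset, replicate block, total library size, ribosomal protein gene scaling, fits of only the groups compared and leaving out each library. Leaving out the HCT116 libraries numbered 1, leaving out LS180 4 h libraries 2 and 3, and the count ratios were added after the data were seen. Loci are from GENCODE 29 on GRCh38, which held 80.6% of the siRNA and 51.6% of the actinomycin D identifiers with the same version. Python 3.11.15, pandas 2.3.3 and scipy 1.17.1 were used for tables.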

Additional observations from a re-analysis of the deposited data

Results flagged for a closer look

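The lines differed in the 4 h change of 7 of 24 receptor and SMAD genes, all higher as HCT116 minus LS180, and of 10 of 27 TGF-beta target genes, 8 higher and 2 lower, tested as an interaction in edgeR. Over all genes tested 13.7% were called, 12.3% higher and 1.33% lower, so most calls of any kind were higher. Without LS180 4 h library 1 the split over 17579 genes was 1919 higher and 2536 lower. The 4 genes with the smallest adjusted p in each of these lists are given, with differences on the log2 scale. Among receptors and SMAD regulators the difference was 1.19 for ACVR2B (adjusted p = 6.20e-07), 0.94 for ACVR1B (adjusted p = 1.14e-05), 0.78 for SMURF1 (adjusted p = 8.56e-05) and 0.94 for TGIF2 (adjusted p = 0.00139). Each of these 4 fell less in HCT116: ACVR2B, an activin receptor gene, went from 19.4 to 7.42 CPM in LS180 and from 36.0 to 31.4 CPM in HCT116. Among TGF-beta target genes it was 2.22 for CDKN1A (adjusted p = 4.75e-07), 1.11 for HMGA2 (adjusted p = 2.38e-05), 1.40 for KLF10 (adjusted p = 0.000191) and -2.13 for SNAI1 (adjusted p = 0.000137). CDKN1A went from 159.7 to 21.8 CPM in LS180 and from 210.3 to 133.3 CPM in HCT116. SNAI1, a repressor of E-cadherin, went from 0.733 to 0.566 CPM in LS180 and from 5.50 to 0.965 CPM in HCT116. Without LS180 4 h library 1 TGIF2 and KLF10 kept the call (0.98 and 1.38, adjusted p = 0.000155 and 0.00051). With library 1 as the sole LS180 4 h library, its spread taken from the other groups, they were 0.45 and 0.99 (adjusted p = 0.130 and 0.0629). No member was called by this test. It could resolve little for members with few counts in HCT116, such as LUM (-3.23, SE 1.84) and COL3A1 (2.74, SE 1.28).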

How the results depend on the processing

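For single members 1100 alternative values counted as unchanged, among them knockdown values, which carry no test and so have no side of the threshold. Under actinomycin D the unchanged values kept their side of the threshold, though some uncalled values changed sign. HSPG2 in LS180 at 4 h, for example, was 0.24 in the main fit and -0.24 with ribosomal protein gene scaling. A further 6, all in the knockdown, moved in value. Under actinomycin D 21 gained and 19 lost a call, and 2 changed both side and sign. These last 2 were LS180 at 4 h with ribosomal protein gene scaling, -0.13 for TGFBI and -0.52 for TGFB1. For each result whose value changed below, the cause was not tested. For siSTAU1 6482 genes were called, and 4073 to 6394 when 1 library was left out (4073 without siCTRL library 1, 4321 without siCTRL library 2). In LS180 at 2 h 1 member was called, lower, against 2 lower with the replicate block or with ribosomal protein gene scaling, 2 higher and 0 lower with no filter, 1 higher and 2 lower with only the groups compared, and 0 to 2 without 1 library (0 without 0 h library 1, 2 without 0 h library 2). With RLE, DESeq2, at least 1 CPM or without 2 h library 2 it was also 1, but higher. In LS180 at 4 h 4 were called, against 2 with at least 1 CPM or the length offset, 1 without 4 h libraries 2 and 3, and 3 to 5 without 1 library. In HCT116 at 2 h 0 were called, against 1 with at least 1 CPM, the replicate block, only the groups compared, ribosomal protein gene scaling or without the libraries numbered 1, and 5346 genes against 3355 with total library size. In HCT116 at 4 h 1 was called, against 2 with no filter and 1 to 2 without 1 library (2 without 0 h library 1). Between the lines 8 were called, against 5 with at least 1 CPM (5 tested) or only the groups compared (6 tested). The line difference at 2 h called 973 genes, against 635 with the length offset, 470 with total library size, 394 with ribosomal protein gene scaling and 453 to 1024 without 1 library (500 without LS180 2 h library 2, 459 and 453 without HCT116 2 h library 2 or 3). At 4 h it called 2359, against 990 without LS180 4 h libraries 2 and 3 and 1724 to 4455 without 1 library (4455 without LS180 4 h library 1).

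Scaling moved the split of higher and lower calls. LS180 at 2 h had 2329 higher and 4121 lower, against 4863 and 3364 with RLE, 1095 and 3797 with total library size and 57 and 5623 with ribosomal protein genes. LS180 at 4 h had 4591 and 5365, against 6044 and 4613, 1893 and 6460, and 151 and 10449. HCT116 at 2 h had 2389 and 2957, against 685 and 2670 with total library size and 36 and 4059 with ribosomal protein genes, and at 4 h 4524 and 4085, against 2274 and 4409, and 121 and 7344. Between the lines it was 5819 and 7343, against 7215 and 5497 with ribosomal protein genes, and the 4 h line difference had 2129 and 230, against 1521 and 451 with RLE.

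Libraries of the same number had r -0.098 to 0.081 in LS180 and -0.054 in the siRNA groups, where they share only a number. In HCT116 r was 0.082 to 0.312, positive in 9 of 9 pairs and above 0.1 in 7, and 7 of 9 libraries were closest to their own number at both other times, a hint of pairing from the data and not the design. With the replicate block siSTAU1 gave 3560 higher and 3504 lower genes, and among members it changed the calls of TGFB2 in LS180 at 2 h (adjusted p = 0.0350) and THBS1 in HCT116 at 2 h (adjusted p = 0.0374). Depth limits LUM, COL3A1 and SPARC in total RNA and TGFBI and TGFB2 in HCT116.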

Other observations

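Matrix proteases and their inhibitors were among the lists with more genes higher than lower in the knockdown, with 8 of 16 tested higher and 3 lower. Over all genes tested 23.0% were called higher and 23.0% lower. The list's median log2 fold change was 0.32, against 0.00 over all genes tested. TIMP2, an inhibitor of metalloproteinases, rose from 6.37 ± 0.501 to 14.1 ± 0.175 CPM (SD, n = 2; log2 1.15; edgeR adjusted p = 4.71e-06). HTRA1, a secreted serine protease, rose from 22.1 ± 0.541 to 33.0 ± 0.957 CPM (log2 0.58; edgeR adjusted p = 3.01e-05). MMP15, a membrane metalloproteinase, rose by 0.33 and DPP4, a membrane peptidase, by 0.40 on the log2 scale (edgeR adjusted p = 1.51e-05 and 6.17e-05).

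Of 12 tested receptors for matrix 2 rose and 4 fell in the knockdown, against 23.0% each way over all genes tested. ITGA2, the collagen-binding integrin chain, fell from 50.7 ± 0.186 to 35.7 ± 1.28 CPM (log2 -0.50; edgeR adjusted p = 3.95e-05). DDR1, a collagen receptor kinase, fell by 0.19, and BCAM, which binds laminin, rose by 0.95 (edgeR adjusted p = 0.000719 and 0.0173). Within the basement membrane list LAMA3, a laminin chain, fell by 0.50, and NID1 (nidogen) and SDC3 (a syndecan) rose by 0.79 and 0.37 (edgeR adjusted p = 0.000675, 0.00109 and 0.000247).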
